A study of Homo sapiens with 8 samples.

Results

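The 41 genes described here are those of the endoplasmic reticulum (ER) stress and ATF4 amino acid response: 3 stress sensors, 7 transcription factors and feedback genes, 6 enzymes of serine, one-carbon and asparagine synthesis, 4 amino acid transporters, 4 other targets of ATF4, 14 ER chaperones and folding enzymes, and 3 genes of ER-associated degradation. They were chosen by name as genes of this pathway, by a rule that uses no measured value, although earlier results of these data were known when the list was made. All 41 were found among the 25369 genes of the count table, and all 41 passed the filter on low counts with which 14570 genes were tested. The cells were LX-2, an immortalized human hepatic stellate cell line with a wild type genotype. They were grown on polyacrylamide hydrogels, either soft (2 kPa) or stiff (40 kPa), and collected after 2 or 4 days, which gave 4 conditions. Gene expression was measured by RNA sequencing in 2 libraries per condition, 8 in all. All libraries came from this 1 cell line, and no library from before seeding or from cells under a known ER stress agent was among them.

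The ER folds secreted and membrane proteins, and hepatic stellate cells that become myofibroblasts secrete much collagen through it. When unfolded proteins accumulate, the sensors ATF6, IRE1 (encoded by ERN1) and PERK (encoded by EIF2AK3) start the unfolded protein response, in which ATF6 and spliced XBP1 raise chaperones and degradation factors, while PERK phosphorylates the initiation factor eIF2. Phosphorylated eIF2, which other kinases make when amino acids run short, lowers general translation and favours translation of the transcription factor ATF4, whose targets take up and make amino acids. Splicing of XBP1, cleavage of ATF6 and translation of ATF4 are steps that a count of reads per gene does not measure.

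The libraries held 19955975 to 27263935 counts assigned to genes, and the 41 genes together took 0.649% to 0.686% of the counts of a library at day 2 and 0.797% to 0.809% at day 4. The lowest count of any of the 41 genes in any library was 40, for ERN1. Of 8 stellate cell or myofibroblast markers, 4 (COL1A1, PDGFRB, ACTA2 and VIM) were at 1 FPKM or more in every library and DES and LRAT stayed under 0.05 FPKM, while 0 of 4 hepatocyte, 0 of 3 endothelial and 0 of 3 epithelial markers reached that level and of 3 leukocyte markers only CD68 did. The 2 stiff day 4 libraries stood apart from each other: the log2 ratio of replicate 2 to replicate 1 had an SD of 0.56 over the 41 genes, against 0.16, 0.07 and 0.22 in soft day 2, stiff day 2 and soft day 4. This ratio followed gene length, with a Spearman correlation of -0.78 across the 41 genes and -0.56 across all 14570. Gene length here is the length that the FPKM imply, and genes are not independent replicates. In soft day 4 the correlation over the 41 genes was 0.75. Long transcripts tended to be lower and short ones higher in replicate 2 of stiff day 4. The members ran from ERN1 (4005 bases) at 0.398 times to SDF2L1 (874 bases) at 2.11 times the level in replicate 1. Some departed from this, such as HSPA5 (3970 bases) at 1.26 times and PSAT1 (2256 bases) at 0.92 times. The results that rest on these libraries are therefore also given without each of them, and the part of transcript length or RNA quality in them was not tested.

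Day 2 and day 4 also differed in genes that share sequence or position with others. Of 116 tested genes that share at least 50% of their exon bases with another listed gene on the same strand (GENCODE v44 lifted to GRCh37), 19 on the soft and 21 on the stiff matrix were at least 4-fold lower at day 4, or 16.4% and 18.1%, against 1.51% and 1.62% of the 12658 genes that share under 5%. Among the same 116 genes, 0.862% on soft and 5.17% on stiff rose at least 4-fold, against 0.719% and 0.972% of those sharing under 5%. All 41 members share under 5%, while ATF5, MTHFD2, PDIA3 and PDIA6 share 6.78% to 25.2% of their exon bases with a gene on the opposite strand. Of the named copies of members in the table, SLC7A5P2 had 161 to 181 counts at day 2 and 12 to 20 at day 4, at most 21.5% of the count of SLC7A5. SLC7A5P1 had 45 to 62 counts at day 2 and 0 to 11 at day 4, at most 7.55% of it. PDIA3P1 had 457 to 583 and 156 to 226 counts, at most 3.95% of the count of PDIA3. A difference between days in how the reads were made or counted and a difference in time on the matrix cannot be told apart.

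Promoter windows of the members were taken from RefSeq on GRCh38.p14, each covering 250 bases before to 50 bases after an annotated start of transcription. A window was found for 38 members and none for PDIA3, SHMT2 and PSPH. 4 motifs were searched on both strands. They were the ER stress response element ERSE (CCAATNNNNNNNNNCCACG), its second form ERSE-II (ATTGGNCCACG), a site for C/EBP and ATF factors (TTGCATCA) and the core of the unfolded protein response element (TGACGTGG). Both ERSE forms end in the same letters CCACG, whose complement CGTGG also ends the UPRE core, so that a match of one can overlap a match of another. ERSE was found in 7 members, namely XBP1, HSPA5, HSP90B1, PDIA6, CALR, CANX and CRELD2, and in 0.0769% of all 35116 windows. ERSE-II was found in 3 members, SDF2L1, HYOU1 and HERPUD1, and in 0.0541% of all windows. The C/EBP and ATF site was in 4 members, CEBPG, SLC1A5, CHAC1 and HERPUD1, and in 0.866% of windows, and the UPRE core was in HYOU1 alone among the members and in 0.729% of windows. These are matches of letters, and whether a factor bound there was not measured.

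**Figure D1:**
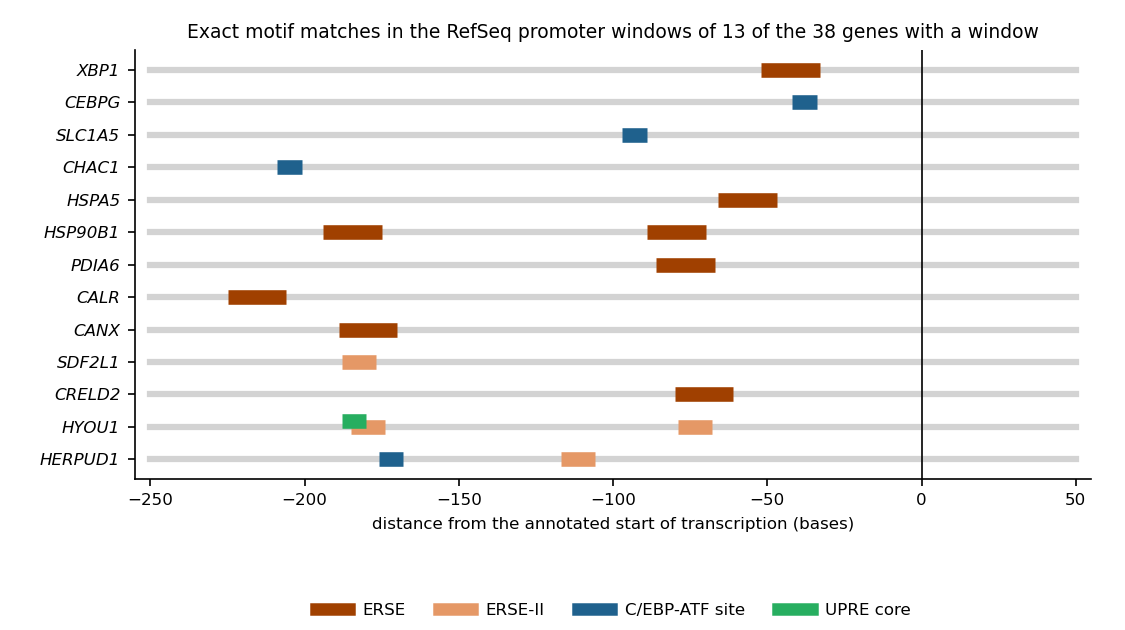
Exact matches of 4 motifs in the promoter windows of the 13 members that hold any of them, by distance in bases from the annotated start of transcription (line at 0; for CANX, 1 of its 3 windows is drawn). HSP90B1 holds 2 ERSE and HYOU1 holds 2 ERSE-II, 1 of which overlaps its UPRE core.

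The windows of 4 members are printed 5′ to 3′ on the strand of the gene, with the motif matches in capitals. HSP90B1, CALR and CHAC1 were the members with a match that changed between the days on both matrices, and HSPA5 is the classical target of the pathway. HSP90B1 (chr12:103930160-103930459, plus strand) holds an ERSE from 194 to 176 bases before the start, and a second one on the opposite strand from 89 to 71 bases before it. CALR (chr19:12938359-12938658, plus strand) holds an ERSE on the opposite strand from 225 to 207 bases before the start, HSPA5 (chr9:125241294-125241593, minus strand) an ERSE from 66 to 48 bases before it, and CHAC1 (chr15:40953221-40953520, plus strand) a C/EBP and ATF site from 209 to 202 bases before it.
HSP90B1: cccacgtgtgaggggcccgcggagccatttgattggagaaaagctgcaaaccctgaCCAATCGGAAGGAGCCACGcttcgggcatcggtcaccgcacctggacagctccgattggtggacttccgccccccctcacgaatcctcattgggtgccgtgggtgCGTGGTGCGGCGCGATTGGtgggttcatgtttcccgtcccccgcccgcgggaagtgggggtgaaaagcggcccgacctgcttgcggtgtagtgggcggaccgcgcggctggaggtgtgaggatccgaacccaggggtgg
CALR: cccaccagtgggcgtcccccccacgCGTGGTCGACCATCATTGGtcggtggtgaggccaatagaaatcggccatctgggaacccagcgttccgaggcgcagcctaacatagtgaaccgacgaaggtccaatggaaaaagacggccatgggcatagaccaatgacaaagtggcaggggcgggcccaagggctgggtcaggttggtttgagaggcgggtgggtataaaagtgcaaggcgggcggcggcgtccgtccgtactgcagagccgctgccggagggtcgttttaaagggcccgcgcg
HSPA5: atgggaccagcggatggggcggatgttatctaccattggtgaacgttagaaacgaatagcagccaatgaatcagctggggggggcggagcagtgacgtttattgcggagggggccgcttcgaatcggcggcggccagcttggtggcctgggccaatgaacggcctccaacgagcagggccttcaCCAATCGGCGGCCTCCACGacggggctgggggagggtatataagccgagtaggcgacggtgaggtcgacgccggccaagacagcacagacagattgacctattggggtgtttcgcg
CHAC1: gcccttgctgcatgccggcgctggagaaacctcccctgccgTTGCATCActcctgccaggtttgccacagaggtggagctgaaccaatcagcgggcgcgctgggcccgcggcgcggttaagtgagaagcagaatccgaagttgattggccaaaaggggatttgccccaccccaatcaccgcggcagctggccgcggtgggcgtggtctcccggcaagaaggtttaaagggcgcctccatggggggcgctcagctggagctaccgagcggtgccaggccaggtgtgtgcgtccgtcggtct

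Levels of different members were compared by the deposited FPKM, which are per length. CALR had the highest level, with a mean of 617 FPKM over the 8 libraries, followed by HSP90B1 at 294, PDIA3 at 197, ATF4 at 167, HSPA5 at 157 and CANX at 151 FPKM. The FPKM ranges of PDIA3 (159 to 255), ATF4 (127 to 213), HSPA5 (127 to 208) and CANX (105 to 226) overlapped. PDIA3 was above HSPA5 in every library, but the places of ATF4 and CANX changed between libraries. ATF4 was above PDIA3 and HSPA5 in soft day 2 replicate 2 (184 against 174 and 129 FPKM). In soft day 4 replicate 1 it was below both (143 against 226 and 173 FPKM). CANX was above PDIA3 in stiff day 4 replicate 1 (226 against 204 FPKM). The lowest members were PSPH at 5.9965, DNAJB9 at 5.76, CHAC1 at 5.47, SESN2 at 5.09, EIF2AK3 at 2.52, VLDLR at 2.05 and ERN1 at 1.56 FPKM. Of the 6 highest members 5 were chaperones and the other was ATF4, but the chaperones DNAJC3 and DNAJB9 ranked 30 and 36 of 41, and of the sensors EIF2AK3 and ERN1 were among the lowest.

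**Figure D2:**
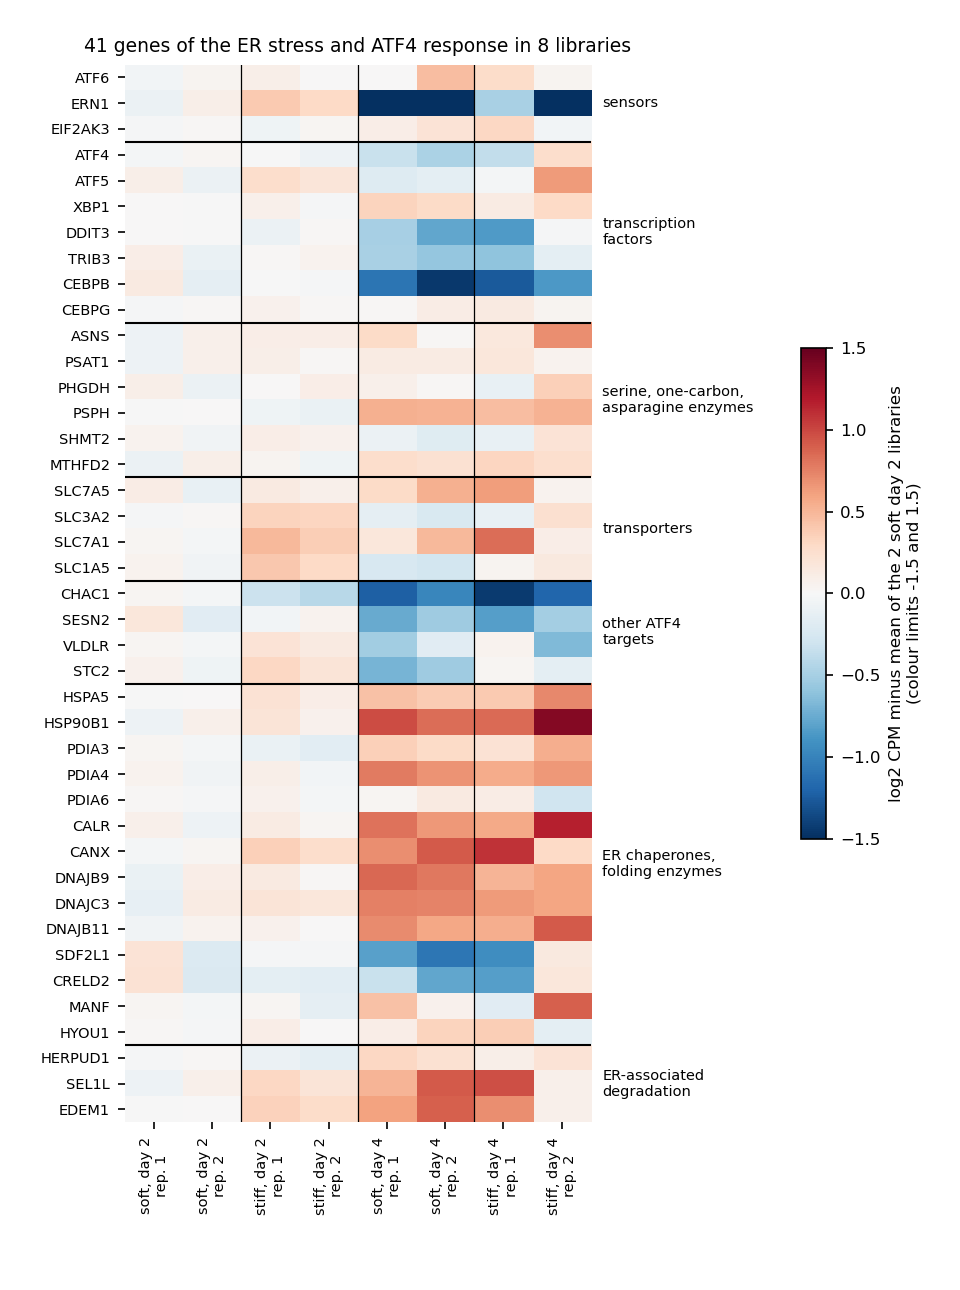
Log2 CPM of the 41 genes in the 8 libraries, each gene relative to the mean of its 2 soft day 2 libraries (rows by role, columns by condition and replicate; red higher, blue lower, colours end at -1.5 and 1.5). Most of the contrast lies between the 4 day 2 and the 4 day 4 columns, and within day 4 the last 2 columns, the stiff replicates, differ in SDF2L1, CRELD2, MANF, SEL1L, EDEM1 and ERN1.

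To see whether matrix stiffness moved this response, the stiff was compared with the soft matrix at each day by edgeR's quasi-likelihood test, fitted to all genes and libraries, with Benjamini-Hochberg adjustment over the 14570 genes. Values are CPM, counts scaled to the TMM-normalized size of each library, and a gene was called at an adjusted p under 0.05. The test called 0 of the 41 genes at day 2 (background 0% of all genes) and 0 at day 4 (0.247%). It also called 0 in the mean of both days (0.426%) and 0 for the difference of the matrix effect between the days (0%). By other tools, DESeq2 called 0 members at day 2, 1 at day 4 (STC2), 2 in the mean (STC2 and SLC1A5) and 0 for the difference, and limma on the FPKM called 0 in each. The share of all genes that DESeq2 called is not given, and the shares above belong to edgeR. The DESeq2 calls therefore show the dependence on the tool only. At an unadjusted p under 0.05 the members counted were 1 at day 2 (2.82% of all genes), 3 at day 4 (6.93%), 5 in the mean (7.7%) and 0 in the difference between days (1.95%). The median log2 fold change of the members, 0.05 at day 2 and 0.08 at day 4, stood beside 0.01 and 0.02 for all genes and turned to -0.02 and -0.03 without scaling factors, which moved the median of all genes at day 4 by -0.11.

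The libraries of the 2 matrices did not overlap in 19 members at day 2, 15 of them higher and 4 lower on the stiff matrix (46.3% of members, background 48.2%), and in 9 members at day 4, 4 higher and 5 lower (22.0%, background 25.7%). A fit of the day 2 libraries alone called 5 members, all higher on the stiff matrix, among 667 genes called in all. At day 4 the result turned on the stiff library used: without replicate 1 of stiff day 4, 18 members were called (14 higher and 4 lower) among 4676 genes, and without replicate 2, 3 members (all higher) among 545 genes. Of the 35 members other than the 6 with the smallest p, 6 had the other direction at day 4 without replicate 1 and 18 without replicate 2, HSPA5, HSP90B1, CALR and CANX among the latter, so that no direction is drawn from their day 4 values below. The calls of these fits in the mean of the days are not read as a result, since the share of all genes called there is not given.

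**Figure D3:**
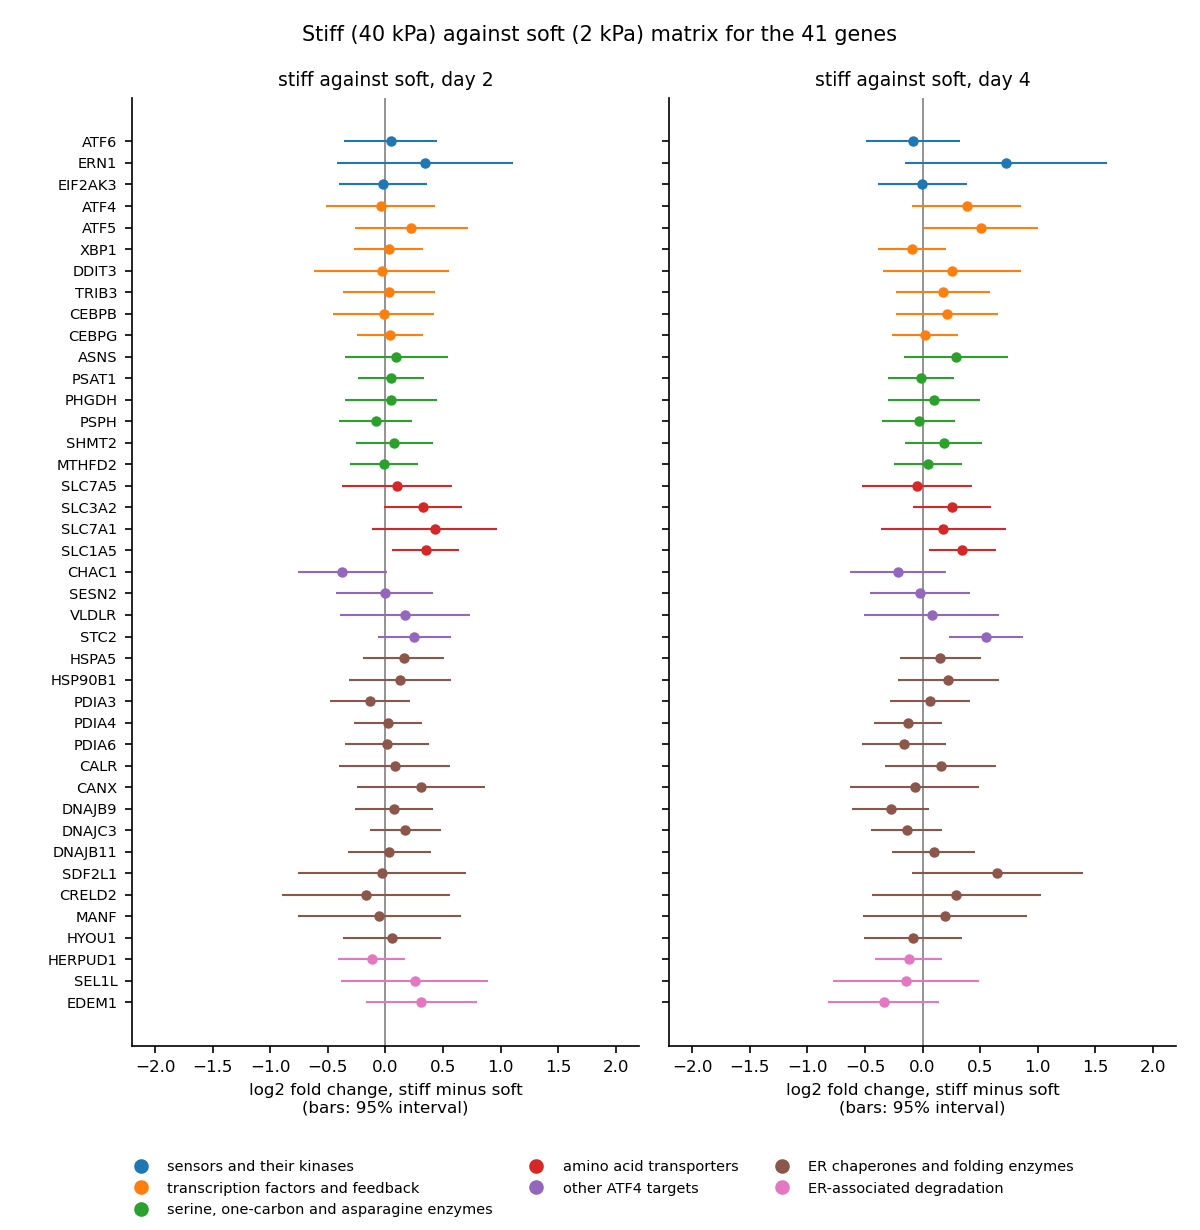
Log2 fold change of the stiff against the soft matrix for each of the 41 genes at day 2 (left) and day 4 (right), with 95% intervals, coloured by role. SLC1A5 lies to the right of 0 with its interval in both panels, STC2 and ATF5 at day 4 only, and all other intervals include 0.

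Among the amino acid transporters, the log2 difference was above 0 for 4 of 4 at day 2 and 3 of 4 at day 4, and no transporter was called. The day 2 difference followed gene length, with a Spearman correlation of 0.64 over the 41 members and 0.24 over all genes. At day 4 it was -0.28 in both, and for the change of the matrix effect between days -0.60 and -0.42. SLC7A1, EDEM1 and SEL1L are among the long members (7343, 6153 and 8576 bases), and the part of length in their values was not tested. SLC1A5, a sodium-dependent exchanger of glutamine and other neutral amino acids, measured 196 and 182 CPM on the soft and 250 and 231 CPM on the stiff matrix at day 2, and 160 and 156 against 194 and 208 CPM at day 4. Its stiff libraries lay above its soft libraries on each day. The log2 difference was 0.35 ± 0.12 (SE, n = 2 libraries per condition) at day 2 (adjusted p = 0.9999) and 0.35 ± 0.12 at day 4 (adjusted p = 0.574), and 0.35 ± 0.09 in the mean of the days (adjusted p = 0.251). With all libraries, SLC1A5 was called in the mean of the days by DESeq2 (adjusted p = 0.0242). An offset for gene length, added after the data were seen, also called it (adjusted p = 0.0469). By limma and with a replicate block it was not called. The calling settings are named because they called it, and not every other setting is listed.

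SLC3A2, the heavy chain that carries SLC7A5 and related transporters to the cell surface, had 210 and 216 CPM on the soft against 269 and 266 CPM on the stiff matrix at day 2, and 194 and 182 against 198 and 251 CPM at day 4. The groups did not overlap on either day, but at day 4 the first stiff library was only just above the higher soft one. The log2 difference was 0.33 ± 0.15 at day 2, 0.26 ± 0.15 at day 4 and 0.29 ± 0.10 in the mean (adjusted p = 0.477). SLC7A1, a carrier of cationic amino acids, stood at 236 and 227 CPM on soft and 324 and 299 CPM on stiff at day 2. At day 4 one of its stiff libraries (413 and 249 CPM) lay above and one below both soft libraries (260 and 324 CPM). The log2 differences were 0.43 ± 0.23 and 0.18 ± 0.23, and the latter turned to -0.22 without stiff day 4 replicate 1. SLC7A5, the light chain partner of SLC3A2 for large neutral amino acids, overlapped on both days with log2 differences of 0.10 and -0.05.

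Of the other ATF4 targets, STC2 and CHAC1 had the smallest p-values, in opposite directions. STC2, a secreted glycoprotein of the stanniocalcin family, had 128 and 118 CPM on the soft and 153 and 140 CPM on the stiff matrix at day 2, and 75.6 and 85.2 against 125 and 111 CPM at day 4. Its libraries were higher on the stiff matrix without overlap on both days. The log2 difference was 0.25 ± 0.14 at day 2 and 0.55 ± 0.14 at day 4 (95% interval 0.23 to 0.87, adjusted p = 0.276), and 0.40 ± 0.10 in the mean of the days (adjusted p = 0.218). At day 4 STC2 was called by DESeq2 (adjusted p = 0.0449) and with the offset for gene length (adjusted p = 0.0367), but not by limma or with a replicate block. Here too the calling settings were picked. Its log2 difference was 0.47 without stiff day 4 replicate 1 and 0.65 without replicate 2.

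CHAC1, which degrades glutathione and is an early target of the ATF4 branch, was at 13.2 and 12.8 CPM on the soft and 10.4 and 9.72 CPM on the stiff matrix at day 2, and at 5.51 and 6.54 against 4.76 and 5.64 CPM at day 4. The matrices were apart at day 2, with the stiff libraries lower, and overlapped at day 4. The log2 difference was -0.37 ± 0.17 at day 2, -0.21 ± 0.18 at day 4 and -0.29 ± 0.12 in the mean (adjusted p = 0.615). SESN2, a stress-induced sensor of leucine, and VLDLR, a lipoprotein receptor, differed by -0.01 and 0.17 at day 2 and by -0.03 and 0.08 at day 4 on the log2 scale.

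ATF4 itself measured 359 and 373 CPM on the soft and 364 and 347 CPM on the stiff matrix at day 2, and 291 and 262 against 282 and 439 CPM at day 4. The day 2 libraries were nearly level, and at day 4 only the second stiff library stood above the rest, so that the log2 difference of 0.38 ± 0.20 (95% interval -0.09 to 0.85, adjusted p = 0.819) came with overlapping groups. ATF5, a related factor of mitochondrial and amino acid stress, had 29.0 and 25.7 CPM on soft and 33.0 and 31.0 CPM on stiff at day 2, and 23.9 and 24.8 against 26.8 and 42.5 CPM at day 4. Its groups did not overlap on either day, with log2 differences of 0.22 ± 0.21 and 0.51 ± 0.21 (adjusted p = 0.705 at day 4), and it was called at day 4 without stiff day 4 replicate 1 (0.81, adjusted p = 0.000389) but not without replicate 2. DDIT3 (also named CHOP), TRIB3, CEBPB, CEBPG and XBP1 had log2 differences between -0.03 and 0.04 at day 2 and between -0.09 and 0.26 at day 4.

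ERN1 at day 4 shows how much depends on the stiff libraries. It stood at 7.64 and 8.67 CPM on soft and 10.7 and 10.01 CPM on stiff at day 2, and at 2.38 and 2.57 against 5.79 and 2.30 CPM at day 4. The stiff libraries were higher at day 2, while at day 4 the first stiff library was the highest and the second the lowest of the day. The log2 difference at day 4 was 0.72 ± 0.38 (adjusted p = 0.819), which became 1.23 without stiff day 4 replicate 2 (adjusted p = 0.00394) and -0.09 without replicate 1. SDF2L1, a component of an ER chaperone complex, showed the opposite order, with 31.7 and 26.4 CPM on soft and 29.3 and 61.9 CPM on stiff at day 4, and its log2 difference of 0.65 ± 0.32 (adjusted p = 0.801) became 1.10 without replicate 1 (adjusted p = 0.000137) and 0.02 without replicate 2. ATF6 and EIF2AK3 differed by at most 0.08 on the log2 scale on either day.

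The enzymes of serine, one-carbon and asparagine synthesis did not differ between matrices by more than 0.29 on the log2 scale. This largest value, for asparagine synthetase ASNS at day 4 (95% interval -0.16 to 0.74), came with 70.6 and 58.8 CPM on soft and 64.5 and 93.8 CPM on stiff, which overlapped. For PSAT1, an aminotransferase of the serine pathway, the 95% interval of the day 4 difference ran from -0.30 to 0.27. The log2 differences of the other 4 enzymes, PHGDH, PSPH, SHMT2 and MTHFD2, lay between -0.08 and 0.18 over both days. The 14 chaperones and folding enzymes had a median log2 difference of 0.04 at day 2 and 0.08 at day 4, with 10 and 8 of 14 above 0, and both medians turned negative without scaling factors (-0.02 and -0.05). HSPA5 (also named BiP or GRP78), the most studied chaperone of the ER and a regulator of the sensors, had 506 and 512 CPM on soft and 593 and 545 CPM on stiff at day 2, and 689 and 662 against 666 and 838 CPM at day 4. Its stiff libraries were higher at day 2 and overlapped the soft ones at day 4, with log2 differences of 0.16 ± 0.15 and 0.15 ± 0.15. HERPUD1, SEL1L and EDEM1, which act in the degradation of misfolded ER proteins, differed by -0.12, 0.25 and 0.31 at day 2 and by -0.12, -0.14 and -0.34 at day 4.

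For the difference of the matrix effect between days, the smallest p among the members was that of EDEM1, a lectin-like factor that draws misfolded glycoproteins into degradation. EDEM1 had 47.5 and 48.1 CPM on soft and 60.5 and 58.1 CPM on stiff at day 2, and 72.8 and 89.2 against 77.7 and 50.6 CPM at day 4. The stiff libraries were higher at day 2 and overlapped the soft ones at day 4, and the difference between the log2 effects was -0.65 ± 0.30 (adjusted p = 0.9997). The values for DNAJB9, DNAJC3, STC2, SDF2L1 and ATF4 were -0.36 ± 0.21, -0.31 ± 0.19, 0.30 ± 0.19, 0.68 ± 0.45 and 0.42 ± 0.29, none of them called. Without stiff day 4 replicate 1 some members passed this test, in both directions, and without any other single library 0 passed. The share of all genes passing in that fit is not given, so this shows the dependence on 1 library and is no result about the members.

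Over time, members of the response were called in both directions. On the soft matrix 9 members were higher at day 4 than at day 2 (22.0%, background 14.1%) and 5 were lower (12.2%, background 13.3%), and on the stiff matrix 8 were higher (19.5%, background 14%) and 4 were lower (9.76%, background 13.7%). The shares called lower were thus near those of all genes. Chaperones and folding enzymes made up 7 of the 9 rises on soft and 7 of the 8 on stiff, with 0 of their 14 members called lower on either matrix, where 6 and 4 rose and 1 and 0 fell without scaling factors. The lower members were a sensor (ERN1), a transcription factor (CEBPB) and ATF4 targets (CHAC1, SESN2 and, on soft, STC2). PSPH, HSP90B1, PDIA4, CALR, DNAJB9, DNAJC3 and DNAJB11 rose on both matrices and ERN1, CEBPB, CHAC1 and SESN2 fell on both. The 2 comparisons share no library, but they share the fit. The libraries of the 2 days did not overlap in 38 members on soft (92.7%) and 22 on stiff (53.7%). Such gaps were common among all 14570 genes, with 5615 higher and 5353 lower at day 4 on soft and 4601 and 4529 on stiff. Days apart for a single member, as given below, are therefore a description only. The median log2 change of the members was 0.16 on soft and 0.11 on stiff, beside 0.02 and 0.03 for all genes. The stiff value became -0.02 without scaling factors, which shifted the median of all genes by -0.13. The calls then were 6 higher and 7 lower on soft and 4 higher and 6 lower on stiff. In bulk RNA, fewer cells of a kind and less RNA per cell cannot be told apart.

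These counts depended on every library. For the fits without scaling factors above and the fits below, shares of all genes are not given. Their counts show the dependence only and are no result about the members. On soft, 14 members were called with all libraries, 0 without soft day 2 replicate 1, 4 without replicate 2, 2 and 4 without soft day 4 replicate 1 and 2, 8 without either stiff day 2 library and 26 without either stiff day 4 library. On stiff, 12 were called with all libraries, 0 without either stiff day 2 library, 6 without either soft day 2 library, 7 and 8 without soft day 4 replicate 1 and 2, 19 without stiff day 4 replicate 1 and 25 without replicate 2. A fit of each matrix alone called 23 on soft and 0 on stiff. Each of the 26 calls kept its direction in all 19 other settings, and CEBPB and CHAC1 were called in 18 of 19 settings on soft and 16 of 19 on stiff. The calls found in the fewest settings were CANX (8 of 19), CALR (9) and EDEM1 (10) on soft and DNAJB9 (5), PDIA3 (6) and DNAJC3 (7) on stiff. At a fold change of at least 1.5, 13 calls on soft and 7 on stiff were left. The kept directions add no support, since for each call the libraries of the 2 days did not overlap on that matrix.

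**Figure D4:**
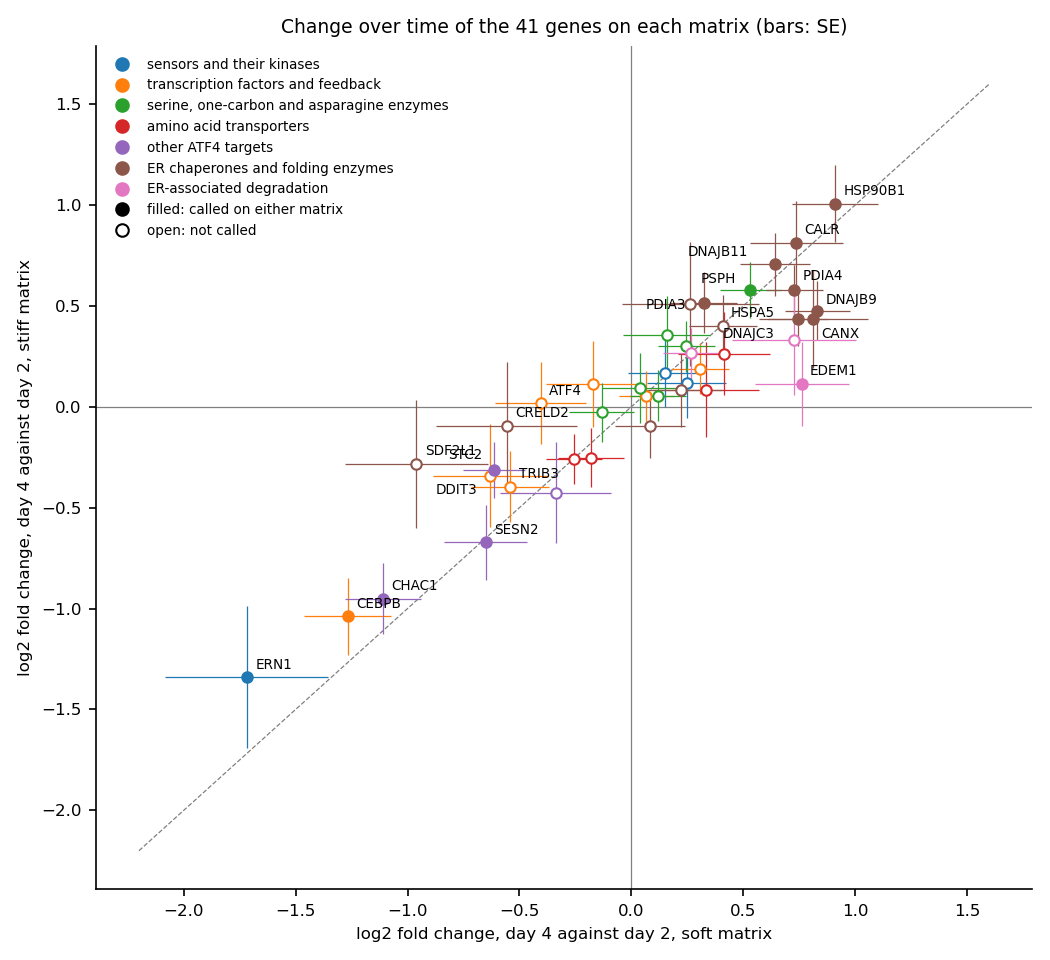
Log2 fold change of day 4 against day 2 on the soft (horizontal) and the stiff matrix (vertical) for the 41 genes, with SE bars and the line of equal change dashed; filled points were called on either matrix. HSP90B1 lies at the upper right end (0.91 and 1.01) and ERN1 at the lower left (-1.72 and -1.34).

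HSP90B1 (GRCh37 chr12:104323885-104347709), the ER chaperone GRP94, had the largest rise on both matrices. It measured 521 and 579 CPM in the soft and 628 and 573 CPM in the stiff libraries of day 2, and 1085 and 982 CPM in the soft and 993 and 1421 CPM in the stiff libraries of day 4. All 4 day 4 libraries lay above all 4 day 2 libraries. The log2 change was 0.91 ± 0.19 on soft (adjusted p = 0.0132) and 1.01 ± 0.19 on stiff (adjusted p = 0.00947), and it was 1.24 and 0.72 on stiff without stiff day 4 replicate 1 and 2. CALR (chr19:13049392-13055303), calreticulin, a lectin chaperone for glycoproteins that also binds calcium, stood at 899 and 804 CPM in soft and 929 and 870 CPM in stiff libraries at day 2, and at 1499 and 1338 and at 1259 and 1902 CPM at day 4. Day 4 was higher in every library, with log2 changes of 0.74 ± 0.21 (adjusted p = 0.0346) and 0.81 ± 0.21 (adjusted p = 0.0251), and the stiff value was 1.08 or 0.48 with replicate 1 or 2 of stiff day 4 left out.

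PDIA4 (chr7:148700154-148725754), a protein disulfide isomerase, had 164 and 153 CPM in soft and 168 and 154 CPM in stiff libraries at day 2, and 272 and 252 and 233 and 248 CPM at day 4. The days did not overlap on either matrix, with log2 changes of 0.73 ± 0.13 (adjusted p = 0.00696) and 0.58 ± 0.13 (adjusted p = 0.0153). PDIA3 (chr15:44038592-44065477), the disulfide isomerase that works with calreticulin and calnexin, rose on stiff only, from 507 and 485 to 628 and 789 CPM, a log2 change of 0.51 ± 0.15 (adjusted p = 0.0391), against 553 and 532 to 694 and 664 CPM on soft, 0.32 ± 0.15 (adjusted p = 0.145). Both matrices had higher values at day 4 in every library, and the difference between the changes, 0.19 ± 0.21, was not called (adjusted p = 0.9997). CANX (chr5:179105629-179158642), the membrane-bound relative calnexin, rose on soft from 520 and 543 to 859 and 1008 CPM, 0.81 ± 0.24 on the log2 scale (adjusted p = 0.0418). On stiff it had 679 and 638 CPM at day 2 and 1126 and 653 CPM at day 4, which overlapped, with a log2 change of 0.43 ± 0.24 (adjusted p = 0.213), and the difference between the matrices was not called (-0.38 ± 0.34, adjusted p = 0.9997).

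Of the J-domain co-chaperones of HSPA5, the 3 members DNAJB9, DNAJC3 and DNAJB11 rose on both matrices. In the wider lists, DNAJC10 (0.76 ± 0.19, adjusted p = 0.0212) and SEC63 (0.54 ± 0.13, adjusted p = 0.0215) rose on soft and were not called on stiff, and DNAJC1 was called on neither. DNAJB9 (ERdj4, chr7:108210311-108215294), measured 10.4 and 11.8 CPM on soft and 12.2 and 11.3 CPM on stiff at day 2, and 20.3 and 19.3 and 15.9 and 16.8 CPM at day 4. All day 4 values were above all day 2 values, and the log2 change was 0.83 ± 0.15 on soft (adjusted p = 0.00708) and 0.48 ± 0.15 on stiff (adjusted p = 0.0464). DNAJC3 (p58IPK, chr13:96329393-96447242), which also inhibits eIF2 kinases, had 43.1 and 51.2 CPM on soft and 53.8 and 52.6 CPM on stiff at day 2, and 79.1 and 79.0 and 72.9 and 70.7 CPM at day 4. Its days were apart on both matrices, with log2 changes of 0.74 ± 0.13 (adjusted p = 0.00751) and 0.43 ± 0.13 (adjusted p = 0.0459). DNAJB11 (ERdj3, chr3:186285192-186303589), had 58.4 and 62.8 CPM on soft and 63.6 and 60.6 CPM on stiff at day 2, and 99.0 and 90.3 and 88.2 and 114 CPM at day 4. Again no day 4 library fell within the range of day 2, and the log2 change was 0.64 ± 0.16 (adjusted p = 0.0210) and 0.71 ± 0.16 (adjusted p = 0.0156). On stiff, DNAJB9 was called in 5 and DNAJC3 in 7 of the 19 other settings, the fewest of these 3 genes.

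The remaining 6 chaperones were not called on either matrix. HSPA5 (chr9:127997132-128003661), whose values are given above, was higher at day 4 in every library, with log2 changes of 0.41 ± 0.15 (95% interval 0.06 to 0.76, adjusted p = 0.0831) and 0.40 ± 0.15 (0.05 to 0.76, adjusted p = 0.0863). SDF2L1 had 64.3 and 48.7 CPM at day 2 and 31.7 and 26.4 CPM at day 4 on soft, a log2 difference of -0.96 ± 0.32 (adjusted p = 0.0593), and on stiff it had 55.5 and 55.2 CPM at day 2 and 29.3 and 61.9 CPM at day 4. CRELD2, a small ER protein that interacts with disulfide isomerases, was likewise at 87.6 and 65.0 against 59.7 and 44.01 CPM on soft and at 68.1 and 67.5 against 42.5 and 84.7 CPM on stiff. For both genes the soft libraries of the days were apart and the stiff ones were not, since the second stiff day 4 library lay above and the first below both of day 2. MANF, a secreted ER factor, HYOU1, a large HSP70-like chaperone, and PDIA6 had log2 changes of 0.26, 0.22 and 0.08 on soft and 0.51, 0.08 and -0.10 on stiff. Of the 7 members with an ERSE, HSP90B1 and CALR were called on both matrices, CANX on soft, and XBP1, HSPA5, PDIA6 and CRELD2 on neither, while the 3 members with an ERSE-II were not called.

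**Figure D5:**
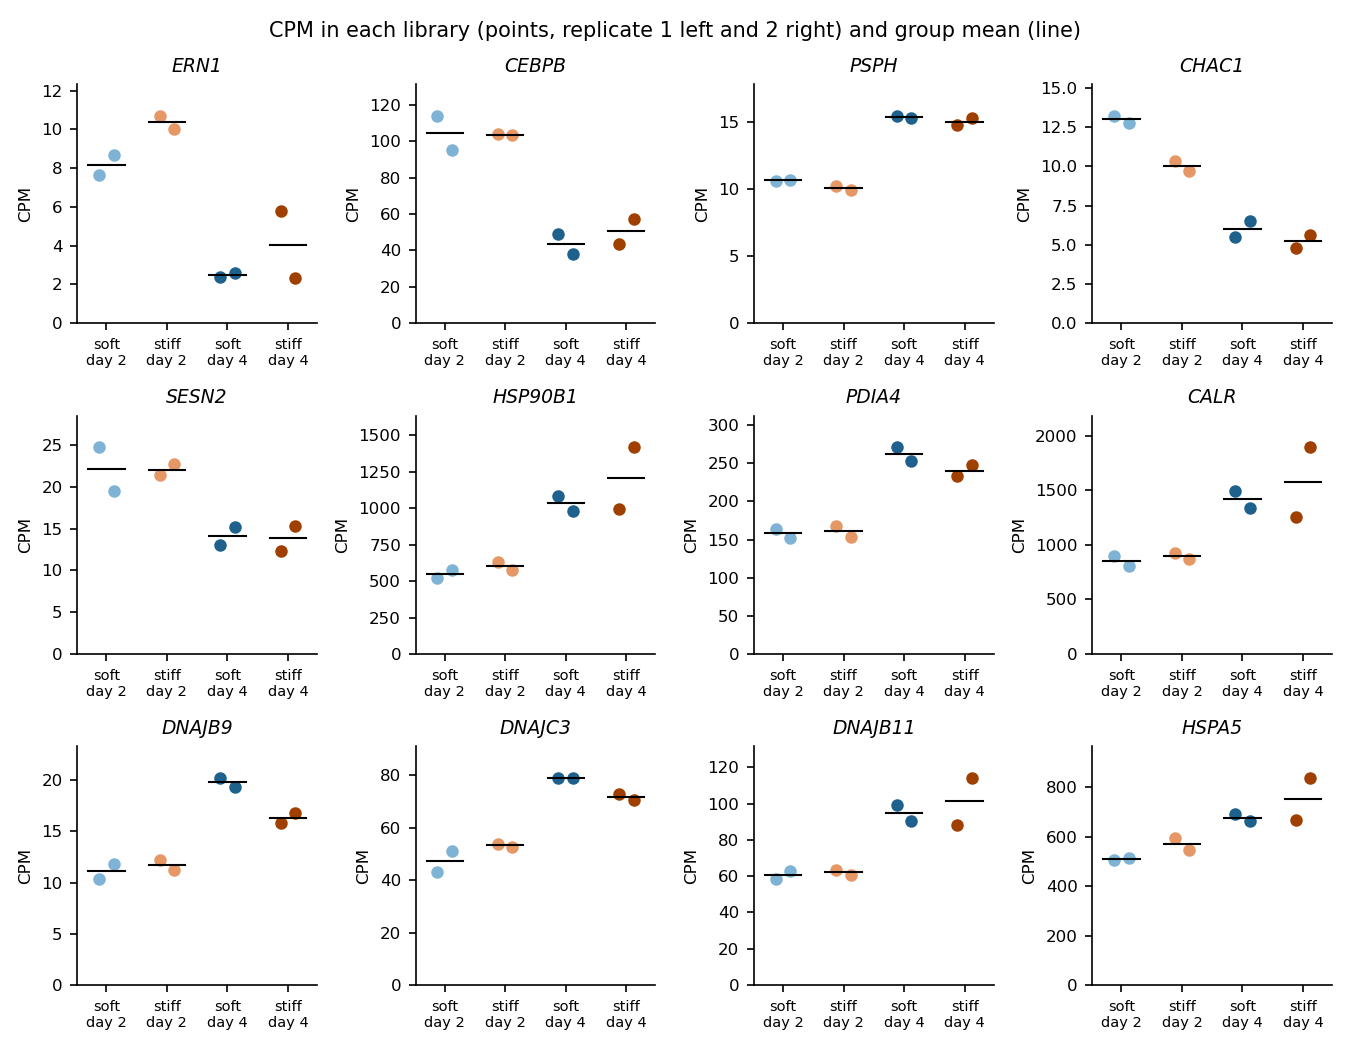
CPM of the 11 members called between days on both matrices, and of HSPA5, in each of the 8 libraries (points) with the mean of each condition (lines), on axes that start at 0. In all 12 genes the day 4 libraries lie on one side of the day 2 libraries of the same matrix, and the 2 stiff day 4 points of ERN1 lie at 5.79 and 2.30 CPM. The 11 were picked by their calls, and such gaps were common among all 14570 genes (5615 higher and 5353 lower on soft, 4601 and 4529 on stiff).

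Among the sensors, ERN1 (chr17:62116440-62208179) fell the most of all members. It had 7.64 to 10.7 CPM at day 2 and 2.30 to 5.79 CPM at day 4. The log2 change was -1.72 ± 0.36 on soft (adjusted p = 0.0133) and -1.34 ± 0.35 on stiff (adjusted p = 0.0272). The days did not overlap on either matrix, and the stiff value was -2.17 without stiff day 4 replicate 1 and -0.85 without replicate 2, both called. ATF6 had 47.6 and 50.01 CPM on soft and 51.9 and 48.8 CPM on stiff at day 2, and 48.9 and 67.05 and 58.9 and 50.4 CPM at day 4. EIF2AK3 ran from 10.7 to 13.9 CPM over the 8 libraries. Their log2 changes were 0.25 ± 0.18 and 0.15 ± 0.17 on soft and 0.12 ± 0.18 and 0.17 ± 0.17 on stiff, so that of the 3 sensors ERN1 was the one called.

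CEBPB (chr20:48807367-48809205), a basic leucine zipper factor that pairs with ATF4 and also acts in inflammation, was the called member with the smallest adjusted p on soft. It had 114 and 95.4 CPM on soft and 104 and 103 CPM on stiff at day 2, and 48.9 and 38.1 and 43.4 and 57.5 CPM at day 4. No day 4 library reached the day 2 range, and the log2 change was -1.27 ± 0.19 on soft (adjusted p = 0.00451) and -1.04 ± 0.19 on stiff (adjusted p = 0.00852). ATF4 was lower at day 4 in both soft libraries and overlapped on stiff, with log2 differences of -0.40 ± 0.20 (adjusted p = 0.174) and 0.02 ± 0.20. Without stiff day 4 replicate 2 the stiff value was -0.34 and called (adjusted p = 0.0384). DDIT3, the proapoptotic factor induced by ATF4, was at 21.5 and 21.4 against 15.2 and 12.5 CPM on soft and at 20.2 and 21.8 against 11.9 and 21.3 CPM on stiff, with log2 differences of -0.63 ± 0.26 (adjusted p = 0.103) and -0.34 ± 0.26. TRIB3, a pseudokinase that feeds back on ATF4, had 38.2 and 33.5 against 25.4 and 23.8 CPM on soft and 36.1 and 37.1 against 23.5 and 32.2 CPM on stiff. Its days were apart on both matrices, yet the log2 differences of -0.54 ± 0.17 and -0.40 ± 0.17 did not pass (adjusted p = 0.0532 and 0.128). XBP1, ATF5 and CEBPG had log2 differences of 0.31, -0.17 and 0.07 on soft and 0.19, 0.11 and 0.05 on stiff.

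Of the 4 other ATF4 targets all had negative log2 changes on both matrices, and 3 on soft and 2 on stiff were called. CHAC1 (chr15:41245160-41248710), at 9.72 to 13.2 CPM at day 2 and 4.76 to 6.54 CPM at day 4, fell by 1.11 on the log2 scale on soft (SE 0.17, adjusted p = 0.00472) and by 0.95 on stiff (SE 0.18, adjusted p = 0.00845). SESN2 (chr1:28586029-28609002) had 24.8 and 19.5 CPM on soft and 21.4 and 22.8 CPM on stiff at day 2, and 13.02 and 15.2 and 12.4 and 15.4 CPM at day 4. Its day 4 libraries were all below those of day 2, with log2 changes of -0.65 ± 0.18 (adjusted p = 0.0354) and -0.67 ± 0.19 (adjusted p = 0.0329). STC2 (chr5:172741726-172755450) fell on soft by 0.61 on the log2 scale (SE 0.14, adjusted p = 0.0160), and on stiff the days were apart as well with a log2 difference of -0.31 ± 0.14 (adjusted p = 0.125). VLDLR differed by -0.34 ± 0.25 and -0.43 ± 0.25 and was not called.

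Among the enzymes PSPH (chr7:56078744-56119297), the phosphatase of the last step of serine synthesis, was the one called. It had 10.6 and 10.7 CPM on soft and 10.2 and 9.93 CPM on stiff at day 2, and 15.5 and 15.3 and 14.8 and 15.3 CPM at day 4. Replicates were close and the days far apart, with log2 changes of 0.53 ± 0.14 (adjusted p = 0.0252) and 0.58 ± 0.14 (adjusted p = 0.0199). PHGDH and PSAT1, which act before it in the same pathway, had log2 differences of 0.04 and 0.12 on soft and 0.09 and 0.06 on stiff. MTHFD2, a mitochondrial folate enzyme, was higher at day 4 in every library (105 to 120 CPM at day 2, 132 to 141 CPM at day 4) and not called (0.25 ± 0.13 and 0.30 ± 0.13, adjusted p = 0.186 and 0.117). ASNS and SHMT2, the mitochondrial serine hydroxymethyltransferase, had log2 differences of 0.16 and -0.13 on soft and 0.35 and -0.03 on stiff. The test called 0 of the 4 transporters. SLC1A5 and SLC3A2 had log2 differences of -0.26 and -0.18 on soft and -0.26 and -0.25 on stiff, with the days apart in all 4 cases. SLC7A5 and SLC7A1 had 0.41 and 0.34 on soft and 0.26 and 0.08 on stiff. The named copies of SLC7A5 had lower counts at day 4, and their part in its change was not tested. In ER-associated degradation, EDEM1 (chr3:5229331-5261643) rose on soft by 0.76 ± 0.21 (adjusted p = 0.0317) and had a log2 difference of 0.11 ± 0.21 on stiff. SEL1L, the scaffold of the HRD1 ubiquitin ligase, stood at 61.3 and 68.7 against 92.3 and 123 CPM on soft (0.73 ± 0.28, adjusted p = 0.0864). On stiff it had 80.7 and 74.2 against 126 and 68.5 CPM, which overlapped (0.33 ± 0.28, adjusted p = 0.394). HERPUD1, a membrane factor of the same ligase complex, had 31.4 and 31.9 against 39.1 and 37.1 CPM on soft (0.27 ± 0.13, adjusted p = 0.147). On stiff it had 29.7 and 28.6 against 33.7 and 36.3 CPM (0.26 ± 0.13, adjusted p = 0.152), with the days apart on both matrices.

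The wider pathway was followed in 119 further genes in 5 lists, of which 117 were tested. Between matrices 0 of them were called at day 2 and at day 4, and 1, DDIT4, in the mean of the days. DDIT4 (REDD1), an inhibitor of mTORC1 signalling induced by ATF4 and by other stresses, was at 46.0 and 38.5 CPM on soft and 28.6 and 30.5 CPM on stiff at day 2, and at 18.7 and 18.5 against 8.69 and 9.39 CPM at day 4. The stiff libraries were below the soft ones on both days, and the log2 difference was -0.51 ± 0.14 at day 2, -1.04 ± 0.15 at day 4 (adjusted p = 0.0519) and -0.78 ± 0.10 in the mean (adjusted p = 0.0294). These counts were not recomputed without single libraries. Over time 30 wider genes rose (25.6%, background 14.1%) and 9 fell (7.69%, background 13.3%) on soft. On stiff, 27 rose (23.1%, background 14%) and 8 fell (6.84%, background 13.7%).

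Lists are given by their counts beside the shares of all genes. These shares were 14.1% higher and 13.3% lower on soft, and 14% higher and 13.7% lower on stiff. No test compared the lists, and genes named beyond the largest changes were picked after their values were seen. In the list of ER translocation and ER to Golgi transport, 13 of 27 genes rose on soft (48.1%) and 11 of 27 on stiff (40.7%), with 0 falls. The rises with the largest log2 change in it were SEC61G, of the translocation channel (1.5963 ± 0.38 and 1.78 ± 0.39), SEC62 (1.46 ± 0.15 and 1.2533 ± 0.15) and SPCS3, a signal peptidase subunit (1.28 ± 0.17 and 1.12 ± 0.17). The receptors KDELR1, KDELR2 and KDELR3, which return chaperones such as HSPA5 and HSP90B1 from the Golgi to the ER, rose by 1.02, 0.99 and 0.82 on soft and 0.98, 0.99 and 0.88 on stiff. Among 14 genes of eIF2 kinases, eIF2 and its phosphatase, 4 rose on soft (28.6%) and 3 on stiff (21.4%) and 0 fell, and all 3 subunits of eIF2 were among them. They were EIF2S1 (0.98 ± 0.13 and 0.96 ± 0.13), EIF2S2 (0.74 ± 0.19 and 0.95 ± 0.19) and EIF2S3 (0.72 ± 0.12 and 0.63 ± 0.12). PPP1R15B, the constitutive targeting subunit of the eIF2 phosphatase, rose on soft (0.73 ± 0.21).

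Of 19 tested other ATF4 targets, 2 rose (10.5%) and 3 fell (15.8%) on soft, and 1 rose (5.26%) and 3 fell (15.8%) on stiff, where the shares called lower were near those of all genes. SLC38A2, a sodium-coupled carrier of neutral amino acids, rose by 1.14 ± 0.20 and 0.81 ± 0.20, and SLC7A11, the cystine carrier, rose on soft (0.86 ± 0.22). DDIT4, VEGFA, an angiogenic growth factor, and ALDH1L2, a mitochondrial folate enzyme, had log2 changes of -1.18 ± 0.15, -1.45 ± 0.17 and -0.79 ± 0.23 on soft and of -1.71 ± 0.15, -1.57 ± 0.17 and -0.76 ± 0.23 on stiff. Of 20 cytosolic aminoacyl-tRNA synthetases, 5 rose (25%) and 2 fell (10%) on soft, and 3 rose (15%) and 2 fell (10%) on stiff, near the shares of all genes on stiff. RARS, DARS and TARS rose and FARSA and VARS fell on both. In the list of 37 genes of ER folding, quality control and degradation, 6 rose (16.2%) and 4 fell (10.8%) on soft, near the shares of all genes. On stiff, 9 of the list rose (24.3%) and 3 fell (8.11%). Among them were the chaperone HSPA13 (0.9959 ± 0.21 and 0.70 ± 0.21) and the ubiquitin-conjugating enzyme UBE2J1 (0.71 ± 0.13 and 0.86 ± 0.13), which were higher, and the ubiquitin ligase SYVN1 (-0.92 ± 0.17 and -1.04 ± 0.17), which was lower. TXNDC5, a disulfide isomerase, went from 16.2 to 23.97 CPM at day 2 to 0.140 to 1.47 CPM at day 4. It shares 60.9% of its exon bases with other listed genes on the same strand. The read-through gene model BLOC1S5-TXNDC5 has a count of 0 in every library, and TXNDC5 is left as uncertain.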

How the data were processed

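RNA was sequenced as paired-end reads from LX-2 cells in 8 libraries, 2 per condition. The study's text names a HiSeq XTen and the labels a NovaSeq. After trimming by TrimGalore and alignment to hg19 by STAR 2.7.1a, htseq-count gave the gene counts that the authors deposited. The gene annotation and the strand setting are not given in the sources used here, which leaves genes that overlap on the other strand uncertain. A matching FPKM table was deposited by the authors, and the gene lengths these imply were whole (within 0.001 bases) in 100% of 20029 genes. The study describes the replicates as independent experiments, while the labels name no separate cultures. The p-values measure the spread between these libraries.

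The members and lists were chosen with earlier results of these data known. Counts were analysed in R 4.3.3 with edgeR 4.0.16: filterByExpr by condition, TMM factors (0.870 to 1.08) and a quasi-likelihood fit of 4 condition means to all 8 libraries, with 7.86 total degrees of freedom. Adjusted p-values are Benjamini-Hochberg values over 14570 genes, standard errors are the log2 change over the square root of F, and a prior count of 2 entered the log2 CPM. Every member is named, those called or, where fewer than 6 were, those with the smallest p with their values per library, and from the wider lists the called genes of largest change. Alternatives were DESeq2 1.42.0, limma 3.58.1 on FPKM (log2 with pseudocounts of 1 and 0.1, genes at 1 FPKM or more in 2 libraries, or no filter), RLE or no scaling, other count filters, separate fits, a replicate block and each library left out, with a length offset, a crossed pairing and a 1.5-fold cutoff added after the data were seen. Where a library was left out, the lone library of its condition is assumed to vary like the other conditions. The edgeR step was tested on simulated data. For stiff against soft at day 4 it called 59% of genes changed 2-fold and 100% of those changed 4-fold, with 5 false calls among 14362 genes. Smaller changes, such as those of the members between matrices, were not simulated, nor was a replicate gap that follows gene length. Totals of 19955975 to 27263935 counts per library keep counting error small for most of these genes. It is larger for the lowest, such as ERN1 (40 to 255 counts), VLDLR (87 to 231) and CHAC1 (97 to 376). The 2 libraries per condition also limit the precision. Genomic positions are from GENCODE v44 lifted to GRCh37.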

Additional observations from a re-analysis of the deposited data

Results flagged for a closer look

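DNAJC3 drew attention because its stiff libraries lay above its soft libraries at day 2 and below them at day 4, without overlap on either day. The log2 effect of the matrix at day 4 minus that at day 2 was -0.3123 ± 0.19 (SE). The quasi-likelihood test of this difference in edgeR gave an unadjusted p of 0.136 and an adjusted p of 0.9997, so that the change of direction did not pass. With 2 libraries per condition, no single library was tested as divergent.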

How the results depend on the processing

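Counts of called members were recomputed under 21 other settings, 8 of which leave out a library. They are given here without the shares of all genes, to show how far the counts depend on the setting. Between matrices, 0 members were called with all libraries in every comparison. A separate fit of day 2 called 5. DESeq2 called 1 at day 4 and 2 in the mean of the days, and an offset for gene length, added after the data were seen, also called 1 and 2. Without 1 library the calls ran from 0 to 18 at day 4, 0 to 9 in the mean and 0 to 10 for the difference between days, and stayed at 0 at day 2. Over time, the 14 calls on soft became 23 in a separate fit, 22 with the length offset and 0 to 26 without 1 library. The 12 calls on stiff became 0 in a separate fit, 7 with limma on unfiltered log2(FPKM + 1), 7 at a fold change of at least 1.5 (added after the data were seen) and 0 to 25 without 1 library. The cause of these moves was not tested. The reduced fits also hold fewer samples, and that part was not separated from the library left out.

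The labels give same-numbered libraries nothing in common but the number. The correlation of their deviations from the group means was -0.04 at day 2, -0.49 at day 4, 0.08 on soft and 0.02 on stiff. It cannot decide whether they were paired, since with 2 libraries per condition it rests on a single difference per group, which followed gene length in both day 4 groups. With a replicate block, 9 members were called over time on soft and 6 on stiff, and 0 between matrices. A crossed pairing at day 4, added after these correlations were seen, called 0 members at day 4. For members called, or with the 6 smallest p where fewer were, 1 of 944 recomputed log2 values changed sign. It was that of ERN1 at day 4 without stiff day 4 replicate 1 (-0.0942), against 1.2342 without replicate 2. These members were picked by small p in the same data, so that few sign changes are no support for them. For the other members 256 of 3689 values changed sign, 46 of 700 for stiff against soft at day 4. Of these 1 was called, ATF4 over time on stiff without stiff day 4 replicate 2 (-0.3413). The median log2 change of the members stayed within -0.03 and 0.09 between matrices and within -0.02 and 0.20 over time.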
